A study of Homo sapiens with 10 samples.

Results

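The suppressor of cytokine signalling (SOCS) family has 8 protein-coding genes, SOCS1 to SOCS7 and CISH, and together with SOCS2-AS1, an antisense long non-coding RNA at the SOCS2 gene, they make up the 9 genes described here out of 57955 in the files. The genes were picked by symbol, and the set was selected on measured values of these same libraries, because SOCS2-AS1 was higher in every resistant line. The resistant to sensitive ratios of the 9 genes are therefore given as a description, with no test. All 9 genes passed the filter on low counts, which kept 17287 genes.

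SOCS proteins act as a brake on cytokine signalling. A cytokine brings its receptors together, the JAK kinases bound to them phosphorylate the receptor tails, and STAT proteins dock there, are phosphorylated and switch on target genes, several SOCS genes among them. The SOCS protein made in return binds the receptor or the kinase through its SH2 domain, and its SOCS box recruits elongins and a cullin ubiquitin ligase that marks bound proteins for degradation, although SOCS1 and SOCS3 can also inhibit JAK kinases directly.

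mRNA was sequenced in 10 libraries from 5 human melanoma cell lines with a BRAF V600E mutation, as 1 library for the sensitive, original line and 1 for the resistant line (E+BRes) derived from it. WM983A, WM278 and WM902B come from primary tumours, WM983B and WM1617 from metastases, and the study describes WM983A with WM983B and WM278 with WM1617 as pairs from the same patients. The resistant lines were grown under encorafenib (a BRAF inhibitor) and binimetinib (a MEK inhibitor), raised from 1 nM to 200 nM during 3 to 5 months, and stayed in 200 nM, while the sensitive lines were not selected with the drugs, so that resistance and the presence of the drugs cannot be told apart. Each group thus held 5 libraries, and the lines served as the replicates. Each resistant line is a single selected population, and in bulk RNA fewer cells that express a gene and less RNA per cell cannot be told apart.

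The totals were 13970608 to 16966008 counts in the sensitive and 13693922 to 18033247 in the resistant libraries. All 8 melanocytic markers exceeded 3 counts in the sensitive libraries and 7 to 8 of them in the resistant ones, with summed normalized counts of 6525 to 68434 and of 1363 to 67335. The leukocyte marker CD3E, the endothelial marker CDH5 and the keratinocyte marker KRT1 were at 3 counts or fewer in all 10 libraries, while other markers of these lists were detected. The 4 leukocyte markers summed to 0.954 to 9.002 in the sensitive and 0.970 to 80.2 in the resistant libraries, the 3 endothelial ones to 2.01 to 40.6 and 0.970 to 30.9, and the 4 keratinocyte ones to 8.13 to 31.2 and 5.15 to 307. The fibroblast markers, which melanoma cells can also express, summed to 188 to 1196 and 102 to 20858. The resistant WM983A library stood apart in that it correlated more with sensitive WM902B (r = 0.813) than with sensitive WM983A (r = 0.787), while the other 4 resistant libraries were most like their own line.

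SOCS2 (ENSG00000120833) lies on the plus strand of chromosome 12 from 93569814 to 93583487 in GRCh38, and SOCS2-AS1 (ENSG00000246985) on the minus strand from 93542022 to 93571768. Their exons share 277 bases, from 93571324 to 93571398 and from 93571567 to 93571768, and 0 of them are annotated as coding for SOCS2. The shared bases are 4.28% of the 6477 exon bases of SOCS2 and 6.24% of the 4441 of SOCS2-AS1. Counting by strand is not stated in the sources used here, so reads from these bases cannot be told apart between both genes.

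**Figure D1:**
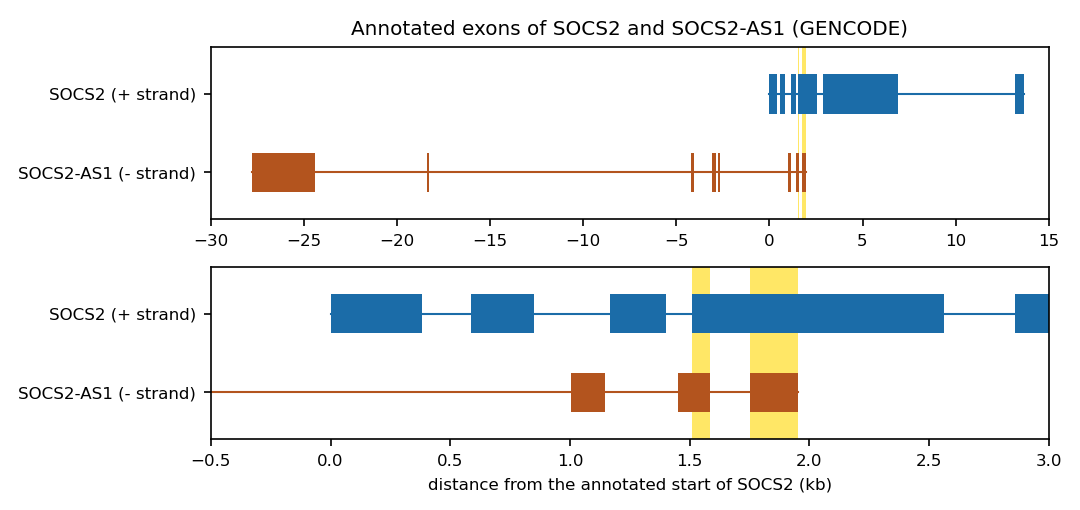
Annotated exons of SOCS2 and SOCS2-AS1 (boxes) along the distance from the SOCS2 start in kb, over both genes in the upper panel and around the SOCS2 start in the lower panel, with the shared exon bases shaded. The 2 shaded stretches of 75 and 202 bases are the only exon sequence that the genes share.

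SOCS2-AS1, the antisense RNA, was present at low counts in every sensitive line and higher in every resistant line. Its normalized count (scaled to a library of 15204222 counts) was 6.001 (WM983A), 9.07 (WM983B), 21.9 (WM278), 20.6 (WM1617) and 17.3 (WM902B) among the sensitive lines. In the resistant lines it was 65.4 (WM983A), 78.2 (WM983B), 68.9 (WM278), 27.9 (WM1617) and 84.4 (WM902B). The groups did not overlap, WM1617 was the lowest of the resistant libraries, and the 2 WM983 lines were the lowest of the sensitive ones. Over all genes past the filter, 0.445% had every resistant library above every sensitive one, and nothing is read from this share for SOCS2-AS1, which was chosen by this contrast.

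For SOCS2-AS1, log2(resistant/sensitive) with 1 added to both normalized counts was 3.25 (WM983A), 2.98 (WM983B), 1.61 (WM278), 0.42 (WM1617) and 2.22 (WM902B), with a mean of 2.09 ± 1.14 (SD, n = 5 lines). In WM1617 the counts were 19 and 32, and the ratio of 1.35 had a 95% exact interval of 0.743 to 2.52, which includes no difference. The intervals of the ratio in the other 4 lines lay above 1, the nearest being that of WM278 with 1.94 to 5.27. These intervals cover counting error only.

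SOCS2, the family member best known for limiting growth hormone signalling, was also higher in each resistant line, by amounts that differed widely between lines. Its normalized count was 67.0 (WM983A), 54.4 (WM983B), 253 (WM278), 210 (WM1617) and 253 (WM902B) in the sensitive state. The resistant values were 317 (WM983A), 321 (WM983B), 338 (WM278), 247 (WM1617) and 563 (WM902B). The groups overlapped, since resistant WM1617 lay below sensitive WM278 and WM902B, and the low sensitive values were again those of both WM983 lines. The log2 ratios were 2.22, 2.54, 0.42, 0.24 and 1.15 in the same order of lines (mean 1.31 ± 1.04, SD, n = 5). The counting interval of the WM1617 ratio, 0.979 to 1.42, included 1.

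SOCS2-AS1 counts were 8.96%, 16.7%, 8.68%, 9.84% and 6.83% of the SOCS2 counts in sensitive WM983A, WM983B, WM278, WM1617 and WM902B. In the resistant libraries they were 20.7%, 24.4%, 20.4%, 11.3% and 14.99%. The percentage was thus higher in the resistant library of each line. The 95% exact intervals of both states overlapped in WM983A, WM983B and WM1617. They lay apart in WM278 (5.41% to 13.3% against 15.6% to 26.4%) and WM902B (3.91% to 11.2% against 11.7% to 18.9%). The intervals hold counting error only. Since SOCS2-AS1 was chosen for being higher in every resistant line, the direction of the percentage is a description.

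Over the 10 libraries, the log2 levels of SOCS2 and SOCS2-AS1 had a Pearson's r of 0.887 and a Spearman's rho of 0.891, and r was 0.812 without the 2 libraries farthest from the median of SOCS2. After the mean of each state was subtracted, r was 0.827. The points share lines, and the genes share exon bases, so these values are a description.

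**Figure D2:**
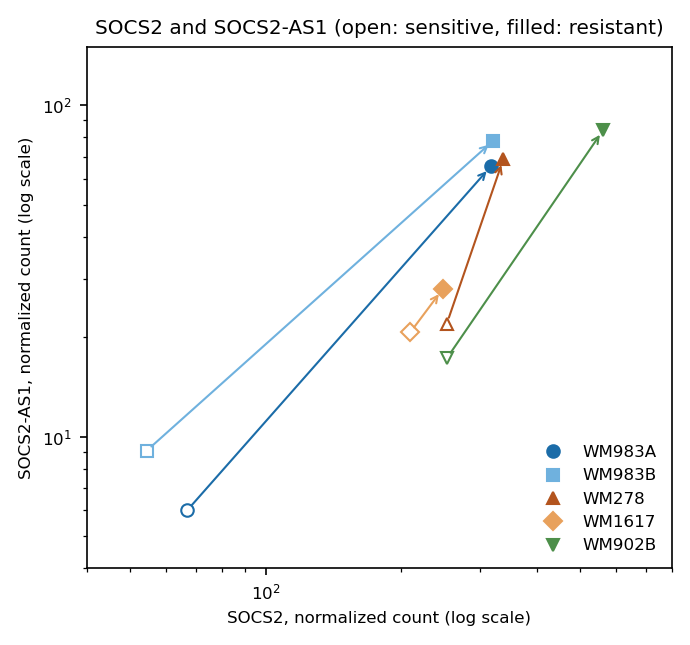
Normalized counts of SOCS2 (x axis) and SOCS2-AS1 (y axis), both on log scales, for the 10 libraries, with an arrow from the sensitive (open) to the resistant (filled) library of each line. All arrows point up and to the right, and that of WM1617, from 20.6 to 27.9 for SOCS2-AS1, is the shortest.

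Of the 13 other genes that start within 300 kb of the SOCS2 start, 5 passed the filter, namely NUDT4, UBE2N, MRPL42, CRADD and the pseudogene RP11-887P2.3. None of the 5 passed a p of 0.05 between the resistant and sensitive libraries in edgeR's quasi-likelihood test. NUDT4, a diphosphoinositol polyphosphate phosphohydrolase, came nearest, with a log2 fold change of -0.66 (SE 0.334) and a lower value in all 5 resistant lines. CRADD, a death domain adaptor that starts 108 kb from SOCS2, had a log2 fold change of -0.00083 (SE 0.327). None of these 5 neighbours was higher in all 5 lines, as SOCS2 and SOCS2-AS1 were. Only 5.77% of all genes were higher in all 5 lines, and SOCS2-AS1 was chosen for this. Nothing is therefore read from the contrast about the locus.

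SOCS3 (ENSG00000184557, chromosome 17 from 78356778 to 78360077, minus strand) binds the gp130 receptor and JAK kinases and is the main brake on signalling by IL-6 type cytokines. It was at least 2-fold higher in all 5 resistant lines and was the only member for which this held. The sensitive normalized counts were 388 (WM983A), 272 (WM983B), 954 (WM278), 342 (WM1617) and 615 (WM902B). The resistant ones were 1675 (WM983A), 740 (WM983B), 2004 (WM278), 805 (WM1617) and 3520 (WM902B). Resistant WM902B was the highest library, and the groups overlapped because sensitive WM278 lay above resistant WM983B and WM1617. The log2 ratios were 2.11, 1.44, 1.07, 1.23 and 2.52 in that order of lines, with a mean of 1.67 ± 0.61 (SD, n = 5), and each counting interval lay above 1.

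SOCS3 had the highest level per length in both states, with a median of 142 normalized counts per kb of exon in the sensitive and 613 in the resistant libraries. WM1617, where SOCS2 and SOCS2-AS1 differed least, still had a SOCS3 level 2.35-fold higher in the resistant library. Among the members, SOCS2-AS1, SOCS2 and SOCS3 were higher in all 5 lines, as were 5.77% of all genes. The smallest of these 15 ratios was the 0.24 of SOCS2 in WM1617, and the next gene outside was CISH, higher in 4 lines.

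CISH (ENSG00000114737, chromosome 3 from 50606489 to 50611774, minus strand), a target gene of STAT5 whose product competes for STAT5 docking sites, was scarce in all libraries. Its sensitive normalized counts were 22.0 (WM983A), 21.2 (WM983B), 7.63 (WM278), 17.4 (WM1617) and 29.5 (WM902B). Its resistant ones were 87.6 (WM983A), 25.8 (WM983B), 1.94 (WM278), 20.9 (WM1617) and 34.0 (WM902B). Resistant WM983A was the highest library and resistant WM278 the lowest. In WM983A the gene had a log2 ratio of 1.95 (ratio 3.98, 95% exact interval 2.45 to 6.73). In WM278 the gene had 8 counts in the sensitive and 2 in the resistant library, a ratio of 0.254 with an interval of 0.0263 to 1.27. The log2 ratio was 0.20 to 0.27 in the other 3 lines, with intervals that include 1.

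SOCS1 (ENSG00000185338, chromosome 16 from 11254417 to 11256204, minus strand), which inhibits JAK kinases downstream of interferon receptors, took opposite directions in different lines. Its normalized count was 20.0045 in sensitive and 8.18 in resistant WM983A, 65.8 and 24.2 (WM278), and 13.0 and 9.58 (WM1617). In WM902B it was 32.5 in the sensitive and 50.5 in the resistant library, and in WM983B it was 24.2 and 267. Resistant WM983B was the highest library, sensitive WM278 came next, and resistant WM983A was the lowest. The log2 ratios were -1.19 (WM983A), 3.41 (WM983B), -1.40 (WM278), -0.41 (WM1617) and 0.62 (WM902B), and the counting intervals excluded 1 in WM983B (7.28 to 17.5) and in WM278 (0.223 to 0.590).

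In the same WM983B libraries STAT2, a signal transducer of type I interferons, was 1135 in the sensitive and 3481 in the resistant state. In WM983A, where SOCS1 was lower in the resistant library, STAT2 was 1069 and 471. In WM278 the direction differed, with SOCS1 lower and STAT2 (809 and 2661) higher in the resistant library. In WM902B both genes were higher in the resistant library (log2 ratios 0.62 for SOCS1 and 2.25 for STAT2), and in WM1617 the ratios were -0.41 and 0.05. The signs thus agreed in 3 of the 5 lines. The counting interval of SOCS1 excluded 1 only in WM983B, where the signs agreed, and in WM278, where they differed. A link between both genes was not tested.

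The other family members, SOCS4 to SOCS7, act mainly on receptor tyrosine kinases and their adaptors, such as the EGF receptor for SOCS4 and SOCS5 and KIT or insulin receptor substrates for SOCS6 and SOCS7. SOCS4 was the steadiest gene of the set, with normalized counts of 641 to 890 in the sensitive and 583 to 796 in the resistant libraries and log2 ratios between -0.24 and 0.12. SOCS5 was 416 and 578 (WM983A), 331 and 506 (WM983B), 1249 and 636 (WM278), 509 and 439 (WM1617) and 539 and 812 (WM902B), sensitive before resistant. Sensitive WM278 was the highest library for SOCS5, and the log2 ratios were 0.47, 0.61, -0.97, -0.21 and 0.59.

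SOCS6 was lower in the resistant library of WM983B, WM278 and WM902B (log2 ratios -0.27, -0.77 and -0.56), higher in that of WM1617 (0.45) and level in WM983A (640 and 639). SOCS7 stood at 264 in sensitive and 996 in resistant WM983A, a log2 ratio of 1.91 with a counting interval of the ratio of 3.28 to 4.35. The other resistant libraries held 128 to 295 for SOCS7, within or just under the sensitive range of 144 to 321, and their log2 ratios were -0.39 (WM983B), -0.12 (WM278), 0.47 (WM1617) and -0.74 (WM902B). SOCS4 (ENSG00000180008) lies on chromosome 14 from 55027230 to 55049489, SOCS5 (ENSG00000171150) on chromosome 2 from 46698952 to 46780245, SOCS6 (ENSG00000170677) on chromosome 18 from 70289045 to 70330199 and SOCS7 (ENSG00000274211) on chromosome 17 from 38351844 to 38405593, all on the plus strand.

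**Figure D3:**
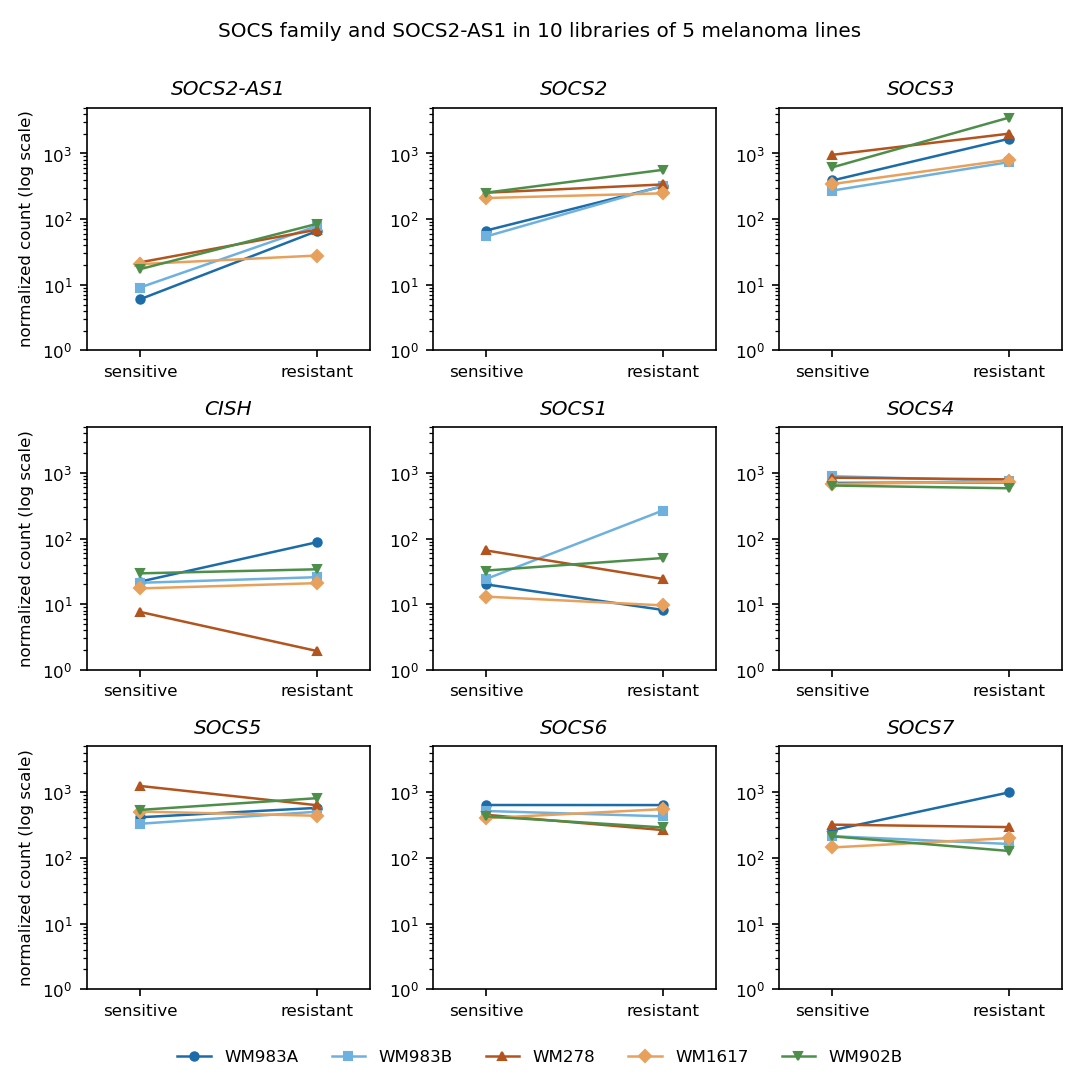
Normalized counts on a log scale for each of the 9 genes, with a line from the sensitive to the resistant library of each cell line. SOCS2-AS1, SOCS2 and SOCS3 slope upwards in all 5 lines, SOCS4 is flat between 583 and 890, and SOCS1 and CISH spread in both directions.

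Per kb of exon, the order of the medians in the sensitive libraries was SOCS3 (142 normalized counts per kb), SOCS4 (99.8), SOCS6 (77.7), SOCS5 (68.0), SOCS2 (32.4), SOCS7 (23.8), SOCS1 (13.5), CISH (4.18) and SOCS2-AS1 (3.89). In the resistant libraries it was SOCS3 (613), SOCS4 (104), SOCS5 (77.2), SOCS6 (73.7), SOCS2 (49.5), SOCS7 (22.2), SOCS2-AS1 (15.5), SOCS1 (13.6) and CISH (5.10). Among the sensitive libraries the ranges of neighbours in the order overlapped, apart from SOCS5 and SOCS2 (44.3 to 167 against 8.40 to 39.1) and SOCS1 and CISH (7.29 to 36.8 against 1.51 to 5.83). Among the resistant ones they overlapped apart from SOCS3 and SOCS4 (270.5 to 1287 against 82.7 to 113). SOCS2-AS1 passed CISH and SOCS1 in the resistant order, although its range of 6.28 to 19.0 overlapped with theirs. The lengths join the exons of all annotated transcripts, and for CISH the 5056 exon bases cover most of the gene, against 1788 for SOCS1. The order, and the gap between SOCS1 and CISH, therefore depend on these lengths.

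Counted per line, at least a 2-fold difference was seen in the resistant WM983A library for 5 members above (SOCS2, SOCS3, SOCS7, CISH and SOCS2-AS1) and 1 below (SOCS1), where 16.9% of all genes were 2-fold higher and 19.4% lower. WM983B had 4 above (SOCS1, SOCS2, SOCS3 and SOCS2-AS1) and 0 below, against 16.2% and 11.2% of all genes. WM902B had 3 above (SOCS2, SOCS3 and SOCS2-AS1) and 0 below, against 15.4% and 12.0%. WM278 had 2 above (SOCS3 and SOCS2-AS1) and 2 below (SOCS1 and CISH), against 12.1% and 7.00%, and WM1617 had 1 above (SOCS3) and 0 below, against 2.83% and 3.80%. The median over the 9 members of the mean log2 ratio was 0.22, against 0.00134 over all genes. Since the set was chosen from this contrast, these counts describe it.

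**Figure D4:**
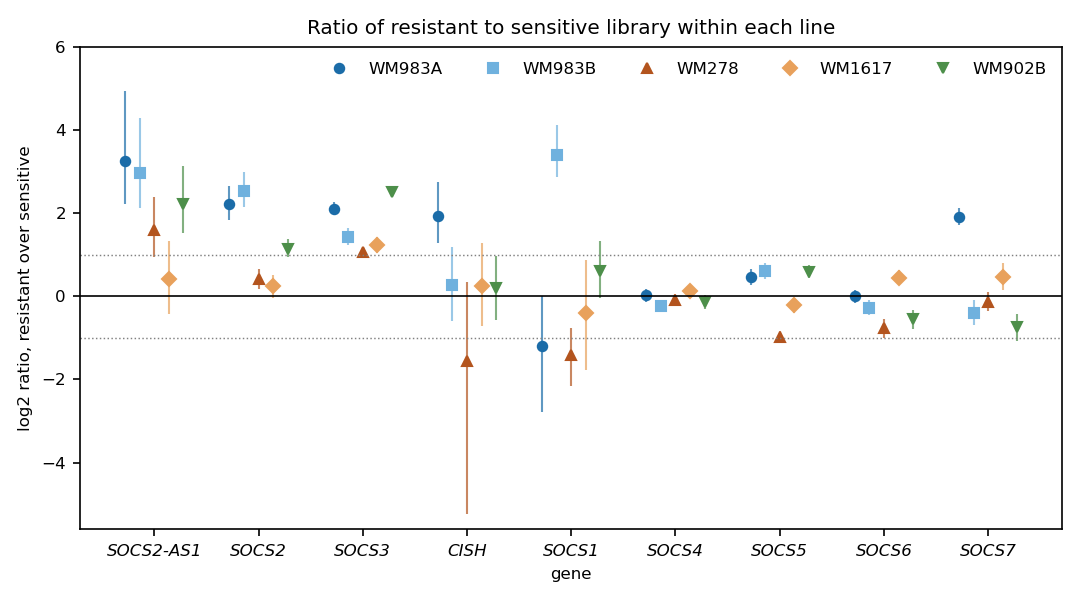
Log2 ratio, resistant over sensitive library, in each of the 5 lines (points) for the 9 genes, with 95% exact counting intervals of the ratio (bars) and dotted lines at a 2-fold difference. SOCS3 lies above the upper dotted line in all 5 lines, and SOCS1 runs from -1.40 in WM278 to 3.41 in WM983B.

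The lines with the larger SOCS2 ratios were also those in which SOX10, a transcription factor of the melanocytic lineage, was low in the resistant library. SOX10 was 5198 in sensitive and 98.1 in resistant WM983A, 4664 and 192 (WM983B), and 4844 and 10.3 (WM902B). It was 4845 and 4165 (WM278) and 5229 and 5136 (WM1617), where SOCS2 differed by less than 2-fold. The resistant SOCS2 level itself was not lower in WM278 (338) than in WM983A (317) and WM983B (321). Both WM983 lines had low sensitive levels of SOCS2 (67.0 and 54.4). SOCS2-AS1 had a log2 ratio of 1.61 in WM278, where SOX10 was kept. SOCS3 was at least 2-fold higher in all 5 lines, with and without the lower SOX10. SOX10 was singled out after its values were seen, and other melanocytic markers did not all follow it. PMEL was lower in resistant WM983A (21397 and 482), WM983B (6997 and 395) and WM902B (21972 and 108). It was near level in WM278 (66.8 and 65.0) and WM1617 (30703 and 29230). S100B was lower in the resistant library of WM983A, WM983B and WM902B and higher in that of WM278 and WM1617. In contrast, MITF was 6115 in sensitive and 3348 in resistant WM902B, and MLANA was 14.1 and 60.1 in WM983B. Sensitive WM278 already had a low level of MITF (163) and PMEL (66.8). The part of these markers in the SOCS2 levels was not tested.

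Differences among the lines were not used to choose the genes and were tested over both states, with state as a term, in edgeR. None of the 9 members passed an adjusted p of 0.05, against 1.46% of all genes. At an unadjusted p of 0.05, 1 member passed, SOCS3 (adjusted p = 0.120), against 23.0% of all genes. The line means of SOCS3 spanned 1.71 on the log2 scale, from WM983B to WM902B, and DESeq2's likelihood ratio test called it with an adjusted p of 0.00344. SOCS2-AS1 had the largest adjusted p of the set (0.849), with line means that spanned 0.89, while those of SOCS4 (0.42) and SOCS6 (0.88) spanned less.

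The origin of the tumour was compared in the sensitive lines, 3 primary against 2 metastatic. Both metastatic lines share a patient with a primary line, and the fit held no patient term. No member passed an adjusted p of 0.05 in edgeR or DESeq2, as no gene did in edgeR (0%, of 18043 genes tested), and no member passed an unadjusted p of 0.05, against 1.74% of all genes. SOCS3 came nearest, with a log2 fold change of 1.09 (SE 0.470) for primary over metastatic origin. For SOCS2-AS1 the log2 fold change was 0.03 (SE 0.799). These values, with errors of this size, do not show that the origins were alike.

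Genes with a pattern like those of SOCS2-AS1, SOCS2 and SOCS3 were ranked by Pearson's r of the log2 levels over the 10 libraries. Nearest to SOCS2-AS1 were SPG7, which encodes a mitochondrial protease subunit (r = 0.993, normalized counts 883 to 1619), RP11-927P21.5 (0.957), CLSTN3 (0.957), LHPP (0.9503) and MTERF4 (0.938). Nearest to SOCS2 were ADM, which encodes the peptide hormone adrenomedullin (r = 0.980, 3.02 to 7809), PCAT7 (0.963), CTD-2368P22.1 (0.947), BBS2 (0.942) and BEX3 (0.937). Nearest to SOCS3 were IL1R1, the receptor of interleukin 1 (r = 0.954, 12.1 to 6074), EPHX1 (0.948), SNRNP70 (0.924), RP11-385D13.1 (0.923) and MAPK8IP3 (0.922). These are the highest of 17287 values each, the libraries share lines, and no p was computed. Between members, SOCS3 had an r of 0.823 with SOCS2 (rho 0.855) and 0.825 with SOCS2-AS1 (rho 0.806). After the mean of each state was subtracted, r was 0.658 with SOCS2 and 0.542 with SOCS2-AS1. All of these genes were higher in every resistant line, so the values over all libraries include that shared difference.

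STAT proteins bind a palindrome, and windows around RefSeq starts of the members were read for TTCNNNGAA on both strands, because CISH and SOCS3 are known STAT target genes. RefSeq windows on GRCh38 of 250 bases before to 50 after a start were at hand for 5 members, CISH, SOCS1, SOCS3, SOCS4 and SOCS6. The CISH window is shown, since it was the one with a match, with the matches in capitals.
CISH, chr3:50611725-50612024, minus strand: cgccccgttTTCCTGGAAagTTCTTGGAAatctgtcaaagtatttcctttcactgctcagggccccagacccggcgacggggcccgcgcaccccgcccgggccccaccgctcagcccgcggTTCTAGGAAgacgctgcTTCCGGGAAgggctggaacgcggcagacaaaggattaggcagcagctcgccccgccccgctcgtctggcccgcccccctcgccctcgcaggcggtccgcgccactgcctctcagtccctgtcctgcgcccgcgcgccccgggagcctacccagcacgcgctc
The CISH window held 4 matches (TTCCTGGAA, TTCTTGGAA, TTCTAGGAA and TTCCGGGAA), and no match overlapped another. The windows of SOCS1, SOCS4 and SOCS6 held 0 matches. Neither of the 2 SOCS3 windows, which also held 0, covers the start of SOCS3 given above, so nothing is read from them about its promoter. Over all genes, 7.66% of 35116 RefSeq windows of this length held at least 1. The AP-1 motif TGANTCA, read because FOS and JUNB are among the genes below, was found in 0 of the member windows and in 7.71% of all windows.

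The other genes of the JAK-STAT pathway were read from a list of 83, of which 70 passed the filter. In edgeR's quasi-likelihood test of 5 resistant against 5 sensitive libraries, 7 of the 70 were at least 2-fold higher with an unadjusted p of 0.05 or less (10%) and 3 lower (4.29%), against 3.53% and 0.885% of all genes. No gene, on the list or off it, passed an adjusted p of 0.05 in this test (0% of 17287, with 1235 at an unadjusted p of 0.05), while DESeq2 called 109 genes, 5 of them on the list. With cell line as a block, 6 listed genes were higher and 3 lower, 8 of them the same as without it, against 3.48% and 2.05% of all genes. The list's median log2 fold change was 0.21, against 0.03 over all genes. The list was drawn up with earlier results of these data known.

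Among the ligands, 2 of the 9 past the filter met the unadjusted threshold, 1 in each direction. IL6, the cytokine that signals through gp130, was 13.0 in sensitive and 25.7 in resistant WM983A, 35.3 and 1471 (WM983B), 44.8 and 838 (WM278), 2.17 and 0.871 (WM1617) and 2.03 and 541 (WM902B). It was high in 3 resistant lines and near 0 in both WM1617 libraries, and the fitted log2 fold change was 4.87 (SE 1.53), with an adjusted p of 0.630. LIF, another ligand of gp130, was 6336 in sensitive and 1037 in resistant WM983A, 13220 and 643 (WM983B), 8552 and 3051 (WM278), 1782 and 1463 (WM1617) and 3658 and 526 (WM902B). It was lower in all 5 resistant lines (log2 fold change -2.32, SE 0.622, adjusted p = 0.630).

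Of the 21 receptors past the filter, IL11RA (log2 fold change 1.65, SE 0.594) was higher and IFNGR2, a chain of the interferon gamma receptor, lower (-1.17, SE 0.415), and neither direction held in WM1617 (log2 ratios -1.11 and 0.58). IL6ST, which encodes gp130, had log2 ratios of -0.04 to 0.40 in 4 lines and 1.75 (WM902B) and did not pass. LIFR ran from -0.45 to 1.86 and OSMR, the oncostatin M receptor, from -0.33 to 2.05, without passing the threshold. The growth hormone receptor GHR, which SOCS2 is known to restrain, had log2 ratios of -4.25 (WM983A), -2.18 (WM983B), -1.74 (WM278), 0.04 (WM1617) and -1.16 (WM902B), so that it was lower in the 4 lines other than WM1617. Its log2 fold change was -0.54 (SE 1.09), which did not pass. It met the unadjusted threshold when cell line was a block (-1.78) or when WM1617 was left out (-1.93). PRLR had 3 counts or fewer in a library of 3 lines and no fold is read from it.

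None of the 4 JAK kinases and 1 of the 6 STATs past the filter met the threshold. JAK1 was higher in all 5 resistant lines by log2 ratios of 0.11 to 0.96, JAK2 ran from -0.48 to 0.54 and TYK2 from -0.16 to 0.26. STAT2 met it (log2 fold change 1.28, SE 0.539, adjusted p = 0.685) but lost it when cell line was a block (0.94). STAT3, the STAT downstream of gp130, was higher in all 5 lines, by 1.80, 0.52, 0.28, 0.55 and 1.26 in log2 ratio, with a log2 fold change of 0.85 (SE 0.289) that is under 2-fold. STAT5A (log2 fold change -0.36), STAT5B (0.58) and STAT6 (0.35) did not pass, and STAT4 did not pass the filter.

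The STAT target genes held 4 of the 10 calls. BCL3, CEBPD, FOS and JUNB were higher, out of 14 target genes past the filter (28.6%, against 3.53% of all genes). None was lower, against 0.885% of all genes. The study had already listed these genes among its upregulated ones, and the list was drawn up with earlier results known, so the counts describe it. CEBPD, a transcription factor gene induced by STAT3, was 108 and 639 (WM983A), 99.7 and 421 (WM983B), 82.0 and 1877 (WM278), 133 and 146 (WM1617) and 226 and 3279 (WM902B), sensitive before resistant (log2 fold change 3.29, SE 0.761, adjusted p = 0.630). FOS, a subunit of AP-1, did not overlap between the groups, with 103 to 745 in the sensitive and 989 to 4611 in the resistant libraries (2.42, SE 0.606). Every resistant library lay above every sensitive one for 0.445% of all genes past the filter. JUNB, another AP-1 subunit, had log2 ratios of 1.59, 2.56, 1.95, 0.35 and 1.09, and BCL3 of 1.58, 2.03, 0.72, 0.24 and 1.26. For all 4 target genes WM1617 had the smallest ratio, as it did for SOCS2 and SOCS2-AS1.

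Of the 10 other inhibitors, SH2B3, an adaptor that restrains JAK2, was lower (log2 fold change -1.42, SE 0.633, adjusted p = 0.694), and its log2 ratios were -2.86 (WM983A), -3.72 (WM278) and -3.09 (WM902B) in the lines of primary and 0.22 (WM983B) and 0.38 (WM1617) in those of metastatic origin. When cell line was a block it missed the threshold (-1.89). None of the 6 partners of the SOCS box in the ubiquitin ligase met the threshold.

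**Figure D5:**
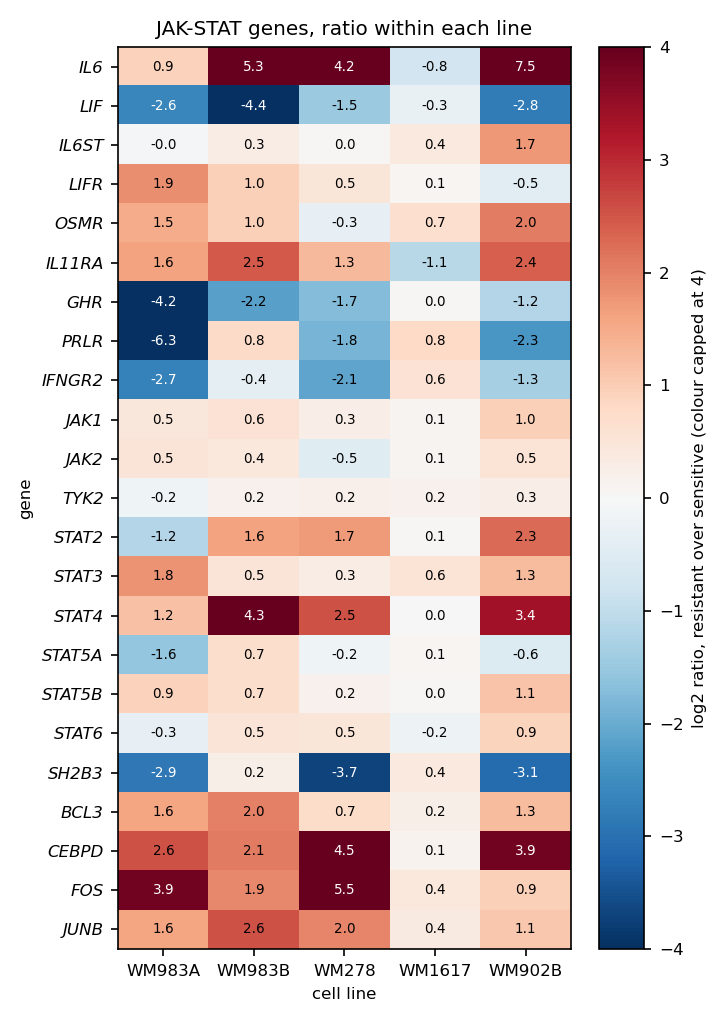
Log2 ratio, resistant over sensitive library (colour and number) for genes of the JAK-STAT list in the 5 lines. CEBPD, FOS, JUNB and BCL3 are positive and LIF is negative in all 5 lines, and the WM1617 column is the palest, with ratios from -1.11 for IL11RA to 0.66 for OSMR among genes over 3 counts in both libraries.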

How the data were processed

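mRNA from 10 libraries, selected with oligo-dT, was sequenced single-end (75 cycles). HISAT2 was used by the authors for alignment to GRCh38 and StrandNGS for quantification (versions, annotation and strand setting not given in the sources used here). The values deposited are expected counts, with fractions, of which 24.1% of those above 0 are whole, and a normalized value on a log2 scale relative to the sensitive line. The normalized value was used only to rebuild 455 counts of sensitive WM983B held as dates. The relative error was up to 7.93e-07 on intact genes over 20 counts, and lower counts were not checked. No member and 1 gene of the JAK-STAT list were among the rebuilt values.

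The rounded counts were analysed in R 4.3.3 with edgeR 4.0.16 (filterByExpr by condition, TMM, glmQLFit and glmQLFTest, two-sided, Benjamini-Hochberg) and DESeq2 1.42.0. Tables and figures used Python 3.11.15, pandas 2.3.3, scipy 1.17.1 and matplotlib 3.10.9. A normalized count is the rounded count scaled by the TMM library size, and log2 ratios add 1. Past the threshold means 2-fold or more and an unadjusted p not above 0.05. The study used the same cut-offs of 2-fold and 0.05. It names a Benjamini-Hochberg correction and does not say whether the p at its cut-off was adjusted. Each line had 1 library per state, so p-values of the fits without a line term measure the spread between lines. In the test among lines and with cell line as a block, they measure the spread left after state and line. Related lines are not fully independent. Intervals are 95% exact intervals of counting error. Positions are those of GENCODE release 44. The fits were tested on simulated data.

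The numbers of the libraries pair them by cell line, as each resistant line was derived from the sensitive line of its name. The deviations from the group means correlated with r of -0.06 in WM983A and 0.38 to 0.67 in the other 4 lines, against a mean of -0.11 between different lines. The members and lists were chosen with earlier results of these data known. Named genes are the 9 members, JAK1, JAK2, TYK2, the STATs and selected ligands and receptors, listed pathway genes past the threshold, the 5 genes most like each of SOCS2-AS1, SOCS2 and SOCS3, and genes starting within 300 kb of SOCS2. Alternatives were DESeq2, its size factors, other filters, added values of 0.5 and 5, unrounded counts, cell line as a block and leaving out each line. Promoter windows of the other members and protein sequences were not used here, and a few items that the rules name are not reported here.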

Additional observations from a re-analysis of the deposited data

Results flagged for a closer look

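In 66 groups of 5 libraries examined, 4 had 1 library apart from the others by Dixon's criterion, where chance alone gives about 1 in 20. SOCS2-AS1 was 27.9 in resistant WM1617, below the 65.4 to 84.4 of the other resistant libraries. JAK1 was 4336 in resistant WM902B, above the rest of its group. Sensitive WM1617 stood apart with 1489 for GHR, above the other sensitive libraries, and with 604 for JUNB, below them. For 3 pathway genes the log2 ratio of resistant to sensitive had one sign in the 3 lines of primary origin and the other in the 2 of metastatic origin. The mean ratio of the primary minus that of the metastatic lines was -1.15 for STAT5A, -4.27 for PRLR and -3.52 for SH2B3. These differences were not tested, and for PRLR they rest on libraries with 3 counts or fewer.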

How the results depend on the processing

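The number of genes past the threshold between resistant and sensitive libraries, 764, was 2258 without a filter on low counts and 420 to 1493 when a line was left out (422 without WM983B, 1493 without WM1617 and 420 without WM902B). With the replicate block on cell line, it was 956. No gene passed an adjusted p of 0.05 in edgeR, while DESeq2 called 109 genes, 5 of them on the JAK-STAT list (IL6, CEBPD, FOS, JUNB and LIF). In the test among lines, DESeq2 called 1 member, SOCS3, and edgeR 0. No called value changed direction, but mean log2 ratios of genes without a call did when a line was left out. That of SOCS1 went from 0.21 to -0.60 without WM983B, those of SOCS7 from 0.23 to -0.20 and CISH from 0.22 to -0.21 without WM983A, that of SOCS5 from 0.10 to -0.03 without WM983B or WM902B, and that of STAT5A from -0.30 to 0.02 without WM983A. Among values of single genes, 4 gained and 13 lost the threshold. The log2 fold change of BCL3 was 1.02 and no longer past the threshold without WM983B, that of IL11RA 1.45 without WM983B and 1.41 without WM902B, and that of IFNGR2 -0.81 without WM983A and -0.91 without WM278. STAT2 lost the threshold without WM983B (1.15), WM278 (1.18) or WM902B (1.02) and with the block (0.94), and SH2B3 without WM983A (-1.21), WM278 (-0.84) or WM902B (-1.20) and with the block (-1.89). STAT3 (1.06) and OSMR (1.44) met it without WM278, and GHR without WM1617 (-1.93) or with the block (-1.78). The block changed no other call of a named gene. The causes were not tested. With 1 library per line and state, the intervals for single lines cover counting error only, and variation between cultures or libraries could not be measured. Among the members, CISH in WM278, SOCS1 in resistant WM983A and SOCS2-AS1 in sensitive WM983A and WM983B rest on fewer than 10 counts.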
